A study of Mus musculus with 6 samples.

Results

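The AIM2-like receptors are cytosolic and nuclear proteins of the interferon-inducible p200 family, encoded side by side on mouse chromosome 1. The 9 genes described here, of 37576 in the count table, are Aim2, Ifi203, Ifi204, Ifi205, Mnda, Mndal, Pyhin1, Pydc3 and Pydc4, chosen by symbol as members of this cluster. Most p200 proteins join a pyrin domain, which binds other pyrin domains, to a HIN domain, which binds DNA; Pydc3 and Pydc4 are annotated by the pyrin domain alone. AIM2 itself binds double-stranded DNA in the cytosol and recruits the adaptor ASC, the product of Pycard, to activate caspase-1, and several relatives have been linked to DNA-triggered interferon induction or to the control of growth and differentiation in blood cells. The cluster has expanded in the mouse, so that most members have no simple human counterpart, and many are known to be induced by type I interferon.

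The RNA came from whole livers of C57BL/6 embryos at embryonic day 12.5, dispersed to single cells. One group held 3 livers homozygous for the E861A mutation of ADAR1 (Adar1E861A/E861A; livers 6, 16 and 19, all male), which changes 1 residue of an enzyme that edits adenosines to inosines in RNA duplexes and is known to abolish that activity. The other group held 3 wild-type livers (2, male, and 15 and 17, both female), so sex was partly tied to genotype. The comparison addresses how loss of this activity alters gene expression in the embryo's liver, here for these receptors.

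Reads counted in genes ranged from 35280460 to 43733715 per library. The hepatoblast genes Alb and Afp averaged 7570 ± 1230 and 13603 ± 2847 CPM (reads per 1000000 counted in genes, scaled with TMM factors) in E861A and 6386 ± 822 and 9930 ± 1314 CPM in wild type (SD, n = 3 each), so the tissue label matched its defining markers. A single residue is mutated, so the gene counts hold no check of the genotype labels. Whether replicate livers came from separate litters is not stated, so p-values measure the spread between these samples. In whole-liver RNA a change in the number of cells of a type and a change in RNA per cell cannot be told apart.

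The promoter sequences of the members are shown first because many of them hold the same short element close to the start. The interferon-stimulated response element (ISRE) is a DNA site bound by interferon regulatory factors. Its core was searched as GAAA, any 2 bases, and GAAA again, on both strands of RefSeq promoters (build GRCm38.p6), which run from 250 bases before to 50 after each start. The promoter table held 8 of the 9 members, all but Ifi204. A match was present in at least 1 promoter of 6 of the 8 and absent from those of Aim2 and Pyhin1. Over the whole table, 3.99% of 27025 genes had a promoter with the core, which is 3.44% of 32851 promoters. Each line gives the match in capitals with 10 bases on either side, 5′ to 3′ on the strand of the gene, and the capitals of Pyhin1 mark a stretch that misses the core by 1 base, the sense-strand one nearest its start.
Pydc4, chr1:173599326-173599355, minus strand: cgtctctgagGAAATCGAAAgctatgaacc
Pydc3, chr1:173673597-173673626, plus strand: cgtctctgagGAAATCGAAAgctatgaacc
Mndal, chr1:173880204-173880233, minus strand: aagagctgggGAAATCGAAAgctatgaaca
Ifi203, chr1:173942508-173942537, minus strand: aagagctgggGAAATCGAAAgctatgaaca
Mnda, chr1:173913064-173913093, minus strand: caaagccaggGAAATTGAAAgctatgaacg
Ifi205, chr1:174031870-174031899, minus strand: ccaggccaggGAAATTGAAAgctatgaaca
Pyhin1, chr1:173630770-173630799, plus strand: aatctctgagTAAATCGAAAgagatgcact

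The element lay on the sense strand in all 6 genes with a match. Its first base stood 35 bases before the start in Ifi203, 36 in Mndal, 37 in Mnda, 58 in Pydc3, 73 in Pydc4 and 134 in Ifi205. Ifi203 and Mndal each have a further RefSeq start. That of Ifi203 had no match, and that of Mndal had one on the other strand. Ifi205 had another match on the other strand, 24 bases after its start. Pydc4 and Pydc3 were identical over the 30 bases shown, as were Mndal and Ifi203. With sequence shared in this way, the 6 genes are not independent cases to set beside the share over all genes. The stretch of Pyhin1, 79 bases before the start, differs from the core by G1T, counted from 1 at the 5′ end of the motif, and 3 other stretches of its promoter miss by 1 base as well (G7C, A8G and A3G). Since 35.4% of all promoters come within 1 mismatch of the core, a match of that quality is common. The closest stretch in Aim2, on the other strand, also missed by 1 base (A3C). The gamma-activated site, searched as TTC, any 3 bases and GAA, was in none of the members' promoters, against those of 9.55% of all genes. These are descriptions of letters in a window and not of bound sites.

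**Figure D1:**
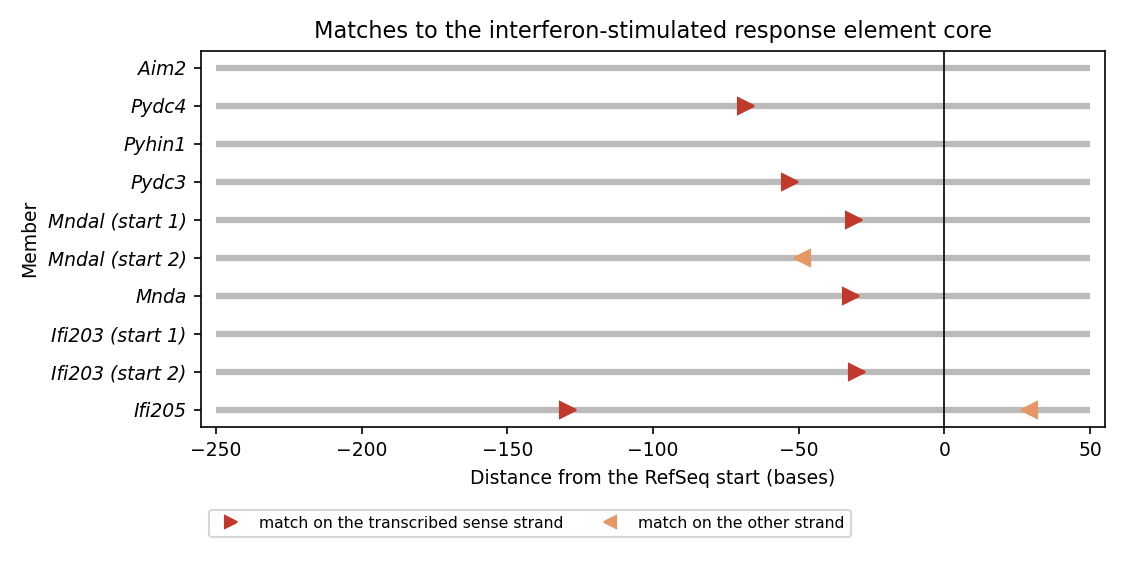
Positions of ISRE core matches in the promoters of the 8 members in the table, by distance in bases from the RefSeq start; each grey bar is 1 promoter, and each arrowhead sits at the middle of a match and shows its strand. Sense-strand matches of Ifi203, Mndal, Mnda, Pydc3 and Pydc4 begin 35 to 73 bases before the start, and the promoters of Aim2 and Pyhin1 hold none.

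In E861A livers 8 of the 9 members rose and Aim2 was the exception. All 9 had enough reads to be tested, and the 8 passed at an adjusted p under 0.05 in edgeR's quasi-likelihood test (Benjamini-Hochberg, over 16511 genes), where 7.77% of all genes tested were called higher in E861A. None was lower, against 4.26% of all genes, and 12% of all genes were called in either direction. Each of the 8 rose more than 4-fold as fitted, as did 2.78% of all genes, and in each the lowest E861A library lay above the highest wild-type library, as in 19.4% of all genes. The median log2 fold change of the 9 members was 4.93, against 0.04 over all genes tested.

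Aim2 (ENSMUSG00000037860) stood at 16, 22.6 and 20.6 CPM in E861A livers 6, 16 and 19, and at 16, 18.2 and 18.0 CPM in wild-type livers 2, 15 and 17. The groups overlapped, with E861A 6 level with wild type 2. The log2 fold change was 0.18 (SE 0.17) with a 95% interval from -0.21 to 0.58, and it did not pass (edgeR adjusted p = 0.562). A change in Aim2 as large as the smallest rise among the other members, 3.33 in Mndal, lies outside that interval.

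Among the 9 members, the pyrin-only genes Pydc4 and Pydc3 had the 2 largest fitted rises, but the order after Pydc4 is not resolved. The 95% interval of Pydc3 (4.99 to 6.04) overlapped those of Pyhin1 (4.77 to 5.84), Ifi205 (4.05 to 6.11) and Mnda (4.24 to 5.61). Pydc4 (ENSMUSG00000073491) had 809, 746 and 934 reads in E861A 6, 16 and 19, against 2, 2 and 0 reads in wild type 2, 15 and 17. It was thus near absent from wild-type liver and reached 20.2 ± 0.99 CPM in E861A, against 0.033 ± 0.028 CPM in wild type (SD, n = 3 each). Its log2 fold change of 9.12 (SE 0.45, edgeR adjusted p = 1.75e-05) ranked 9 of all genes tested and rests on 4 wild-type reads. Pydc3 (ENSMUSG00000066677) stood at 19.8, 17.6 and 15.9 CPM in E861A 6, 16 and 19, and at 0.37, 0.42 and 0.37 CPM in wild type 2, 15 and 17. The E861A livers were all far above the wild-type ones, by a log2 fold change of 5.52 (SE 0.23, edgeR adjusted p = 7.77e-06).

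Pyhin1, Mnda and Ifi205, genes of pyrin and HIN domains, were near or below 1 CPM in wild type and rose in E861A. Pyhin1 (ENSMUSG00000043263), a relative of human IFIX, stood at 35.4, 26.3 and 27.3 CPM in E861A 6, 16 and 19, and at 0.64, 0.89 and 0.71 CPM in wild type 2, 15 and 17. Mnda (ENSMUSG00000026536), named for a nuclear antigen of human myeloid cells, stood at 36.1, 28.1 and 25.0 CPM in E861A and at 1.03, 1.25 and 0.64 CPM in wild type, in the same order of livers. Ifi205 (ENSMUSG00000054203), whose product has been tied to Pycard expression in mouse macrophages, stood at 10.8, 4.77 and 5.16 CPM in E861A and at 0.18, 0.23 and 0.19 CPM in wild type. No E861A library came near a wild-type one in any of the 3, and E861A 6 was the highest in each. The log2 fold changes were 5.31 (SE 0.23), 4.93 (SE 0.30) and 5.08 (SE 0.45), with edgeR adjusted p of 9.65e-06, 4.71e-05 and 0.000344.

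Ifi204, Ifi203 and Mndal were the members most abundant by CPM in E861A. Ifi204 (ENSMUSG00000073489), which encodes p204, a relative of human IFI16 studied in myeloid differentiation and DNA sensing, stood at 102.9, 84.0 and 73.1 CPM in E861A 6, 16 and 19, and at 4.60, 5.14 and 3.92 CPM in wild type 2, 15 and 17. Its log2 fold change was 4.25 (SE 0.20, edgeR adjusted p = 1.38e-05). Ifi203 (ENSMUSG00000039997) stood at 69.6, 87.6 and 74.2 CPM in E861A and at 5.86, 9.15 and 5.83 CPM in wild type. Mndal (ENSMUSG00000090272), studied in mouse cells as an inhibitor of growth, stood at 46.5, 47.8 and 43.9 CPM in E861A and at 3.33, 6.23 and 4.16 CPM in wild type. Wild type 15 was the highest of its group in both, and the E861A livers lay well above it. The log2 fold changes of Ifi203 and Mndal, 3.47 (SE 0.22) and 3.33 (SE 0.24), were the smallest among the 8 that rose (edgeR adjusted p = 6.41e-05 and 0.000113).

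**Figure D2:**
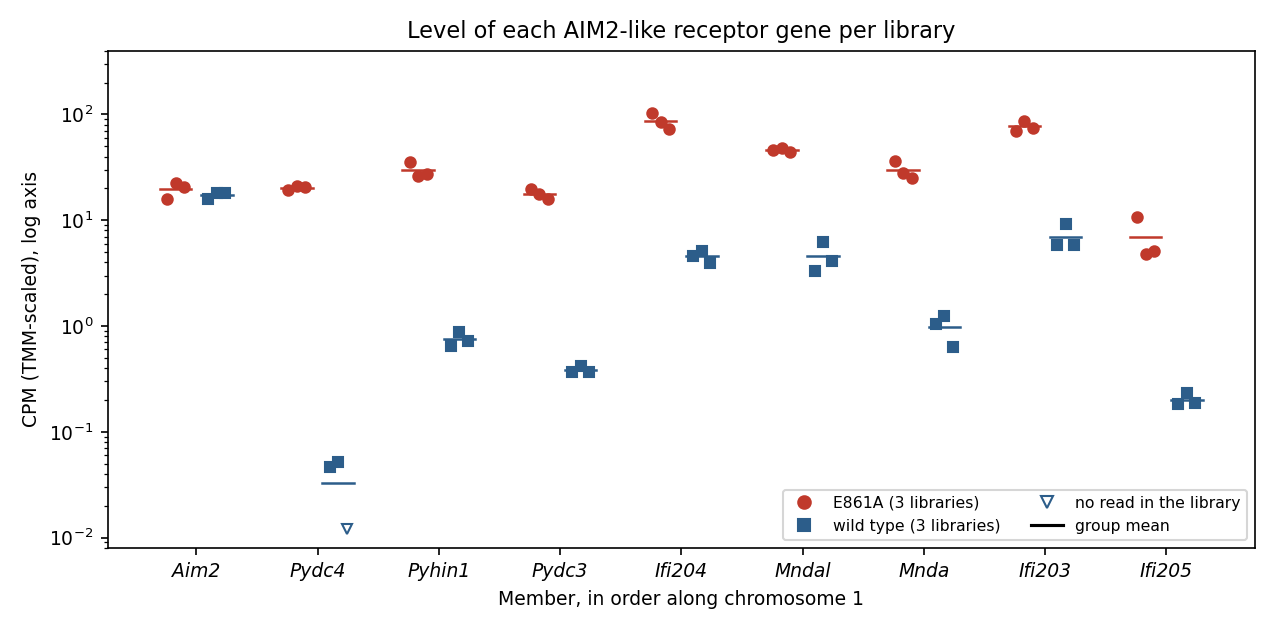
CPM of each member in each library on a log axis, with E861A (circles) left of wild type (squares) and the mean as a line; the open triangle marks a library with no read. Aim2 lies between 16 and 22.6 CPM in all 6 libraries, while the other 8 members show no overlap between genotypes.

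In the authors' deposited table, with its sign turned to E861A minus wild type, Aim2 had a log2 fold change of 0.18 (adjusted p = 0.541). In the same authors' deposited table the other 8 members ranged from 3.40 for Mndal to 9.11 for Pydc4, and the largest adjusted p among them was 0.00466, for Ifi205.

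Counted together, the 9 members held 15064, 12040 and 13965 reads in E861A 6, 16 and 19, and 1395, 1594 and 1276 reads in wild type 2, 15 and 17. Their summed level was 356.1, 339.9 and 305.5 CPM in E861A and 32.1, 41.6 and 33.8 CPM in wild type. With Aim2 near its wild-type level, the member with the most reads differed between genotypes. Aim2 held 4.5%, 6.65% and 6.74% of the members' reads in the E861A livers and 49.9%, 43.8% and 53.2% in the wild-type livers. For every Aim2 read, the other members had 21.2, 14.0 and 13.8 reads in E861A 6, 16 and 19, and 1.0, 1.28 and 0.88 in wild type 2, 15 and 17.

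Levels of different genes were compared after division by the exonic length of their GENCODE M1 models, in CPM per kilobase. That length joins the exons of all transcripts of a gene, so the order depends on the models. It was 6706 bases from 9 transcripts for Ifi203, 1651 from 1 for Mnda and 1907 from 1 for Mndal. In E861A the order was Ifi204 (36.7 ± 6.37), Mndal (24.2 ± 1.03), Mnda (18.0 ± 3.48), Ifi203 (11.5 ± 1.4), Pyhin1 (8.48 ± 1.42), Pydc3 (6.44 ± 0.71), Aim2 (5.63 ± 0.96), Pydc4 (4.82 ± 0.24) and Ifi205 (4.28 ± 2.08; CPM per kilobase, SD, n = 3 each). Neighbours in that order did not overlap between libraries down to Pydc3, while Pydc3 with Aim2, Aim2 with Pydc4, and Pydc4 with Ifi205 did. In wild type Aim2 came first (4.96 ± 0.35), before Mndal (2.40 ± 0.78), Ifi204 (1.93 ± 0.26), Ifi203 (1.04 ± 0.28), Mnda (0.59 ± 0.19), Pyhin1 (0.21 ± 0.036), Pydc3 (0.14 ± 0.010), Ifi205 (0.12 ± 0.018) and Pydc4 (0.0078 ± 0.0068; CPM per kilobase, SD, n = 3 each). There, Mndal and Ifi204 overlapped, and so did Pydc3 and Ifi205. Aim2 was therefore the first of the 9 by level per length in wild type and the seventh in E861A. Per length, the shares of Mndal and Ifi203 in the members' total differed between genotypes by less than their SD, at 20.2% ± 1.7 and 9.68% ± 1.7 in E861A and 20.7% ± 3.7 and 8.98% ± 1.1 in wild type. Mnda held 14.9% ± 1.3 in E861A and 5.15% ± 1.4 in wild type (SD, n = 3 each).

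**Figure D3:**
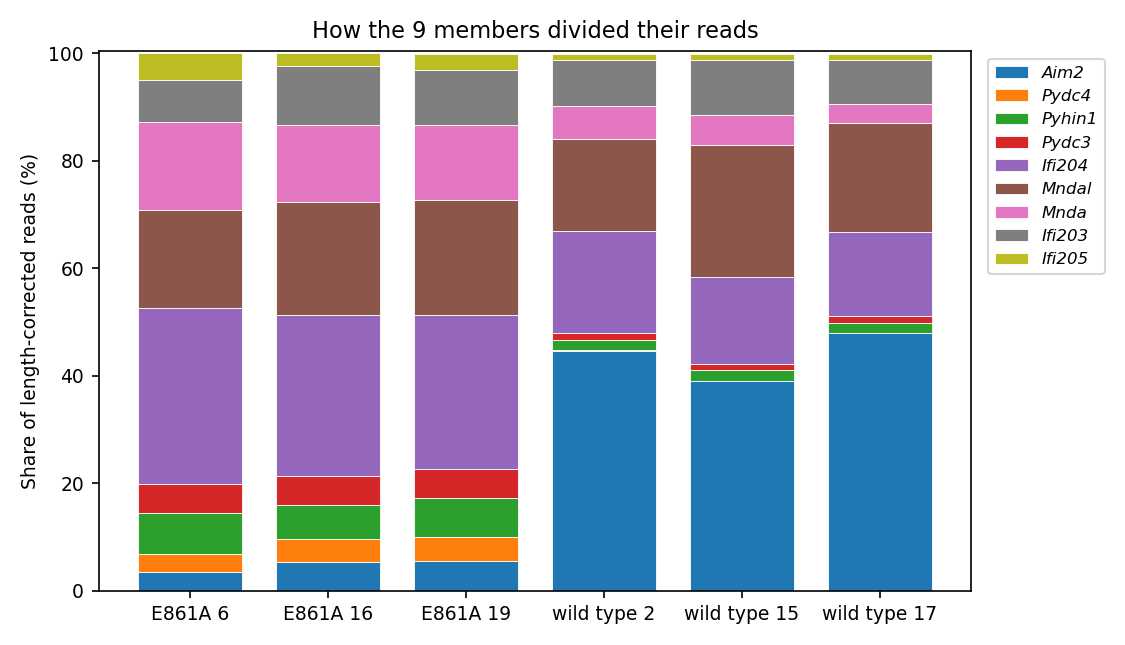
Share of the 9 members' length-corrected reads (percent) held by each member in each library, E861A libraries first. Aim2 fills 3.43% to 5.45% of the E861A bars and 39.0% to 48.0% of the wild-type bars, and Ifi204 is the widest band in each E861A library.

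The E861A livers were not alike in all members. E861A 6 was the highest of its group in Pyhin1, Pydc3, Ifi204, Mnda and Ifi205 and the lowest in Aim2, Pydc4 and Ifi203. Ifi205 spread the most, with E861A 6 well above the others (SD 3.35 around a mean of 6.90 CPM). Markers of macrophages and monocytes also differed between the E861A livers, in both directions. E861A 6 was the highest of its group in Timd4, Spic, Marco, C1qa, C1qb, C1qc and Emr1 and the lowest in Csf1r, Cx3cr1, Itgam, Lyz2, Cd68 and Mertk. Timd4 stood at 8.98, 1.5 and 0.92 CPM in E861A 6, 16 and 19 and at 7.70, 9.99 and 8.98 CPM in wild type 2, 15 and 17, and Spic at 6.97, 1.41 and 1.73 CPM in E861A and 3.45, 4.38 and 3.26 CPM in wild type. Itgam stood at 12.5, 29.4 and 30.7 CPM in E861A and at 9.38, 20.1 and 17.4 CPM in wild type. The part of these cells in the spread of Ifi205 was not tested.

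The 9 members lie on chromosome 1 (NCBIM37) from 175281010 (start of Aim2) to 175961886 (end of Ifi205), interleaved with 5 other genes of the table. Of these, Gm4955, BC094916, AI607873 and Gm16340 rose in E861A and Ifi202b had no read in any library. Each that rose shares 50-base exonic fragments with a member, so these genes are relatives of the members and not unrelated neighbours. Gm4955, which RefSeq names Ifi206, had 1154, 1092 and 1271 reads in E861A 6, 16 and 19, against 5, 16 and 2 reads in wild type 2, 15 and 17, a log2 fold change of 7.19 (SE 0.55, edgeR adjusted p = 0.000248). BC094916 had 54 reads in E861A and none in wild type, and was at least 17.4-fold higher against a floor of 3 reads over the wild-type group. Its call was lost with sex as a covariate (edgeR adjusted p = 0.0619) and in male libraries alone (0.113). AI607873, which RefSeq names Ifi207, had the smallest rise of those called inside the locus. It stood at 17.3 ± 1.95 CPM in E861A and 4.48 ± 0.38 CPM in wild type (SD, n = 3 each; log2 fold change 1.95, SE 0.18, edgeR adjusted p = 0.000438). The pseudogene Gm16340, which RefSeq names Ifi203-ps, stood at 4.25 ± 0.41 CPM in E861A and 0.14 ± 0.038 CPM in wild type. Of its 50-base exonic fragments, 28.3% occur in exons of Ifi203.

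The promoters of Gm4955 and AI607873 hold the core as well, shown here for comparison with the members' windows.
Gm4955, chr1:173491339-173491368, minus strand: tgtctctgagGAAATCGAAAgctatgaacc
AI607873, chr1:173741831-173741860, minus strand: cctagccaggGAAATCGAAAattaagaaca

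Few of the genes that flank the locus had enough reads to be tested. Next to Aim2, the cell adhesion gene Cadm3 stood at 6.06 ± 3.30 CPM in E861A and 9.77 ± 1.56 CPM in wild type, and the chemokine-binding receptor gene Darc at 22.6 ± 8.44 CPM in E861A and 34.3 ± 10.7 CPM in wild type (SD, n = 3 each). Neither passed (edgeR adjusted p = 0.279 and 0.258), but without E861A 19 Cadm3 was called lower (log2 fold change -1.25, edgeR adjusted p = 0.0393). Beyond Ifi205, the olfactory receptor gene Olfr433 had 19, 14 and 13 reads in E861A 6, 16 and 19, against 4, 3 and 3 reads in wild type 2, 15 and 17, and passed (log2 fold change 2.13, SE 0.43, edgeR adjusted p = 0.0190). That call was lost with DESeq2 (adjusted p = 0.108), with sex as a covariate (edgeR adjusted p = 0.159), in male libraries alone (0.41) and without E861A 6, E861A 16, wild type 15 or wild type 17 (edgeR adjusted p from 0.0616 to 0.134). The other 7 flanking genes with any read had at most 15 reads in a genotype and were not tested.

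**Figure D4:**
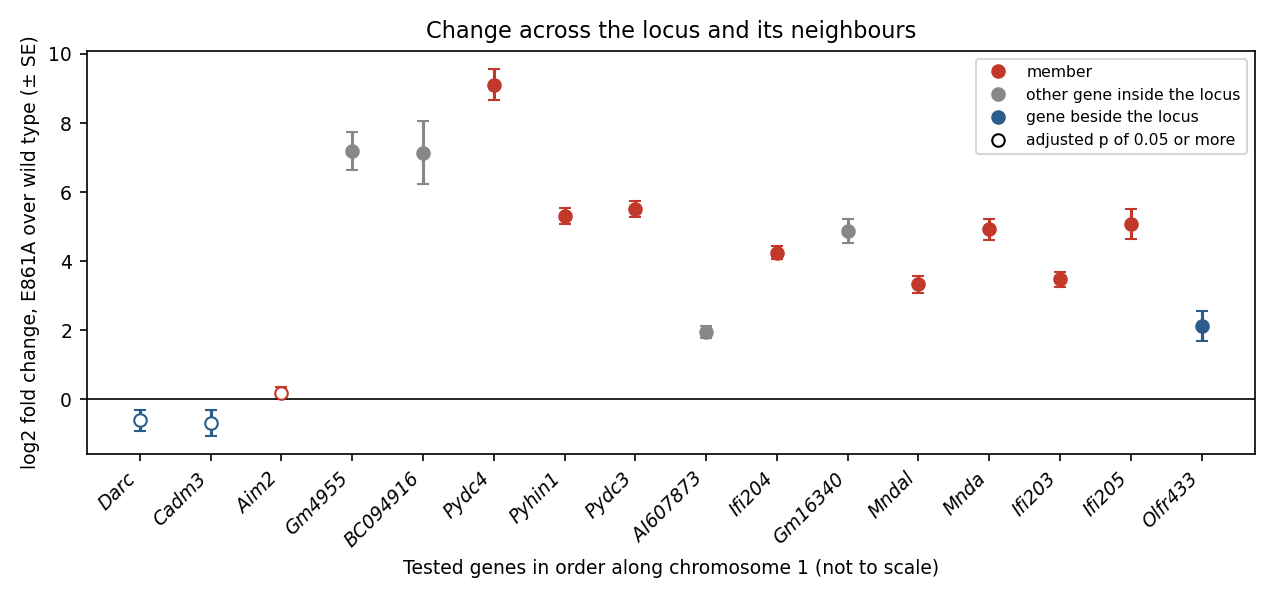
Log2 fold change of E861A over wild type with its SE for the tested genes of the locus and its neighbours, in order along chromosome 1 and not to scale; filled points passed at an adjusted p under 0.05. Aim2 lies at 0.18, its neighbours Darc and Cadm3 lie at -0.60 and -0.69, and every tested gene from Gm4955 to Ifi205 lies at 1.95 or higher.

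Close copies limit how exactly reads can be divided within the cluster. Of the 50-base fragments of Mnda's exons, 80.9% occur elsewhere in the NCBIM37 genome, and 50.8% occur in exons of Ifi205. For Ifi205 the share found elsewhere was 52.6%. For Aim2 it was 4.7%, and for the remaining members it lay between 29.2% (Mndal) and 37.3% (Pyhin1). With 100-base fragments the shares were 66.4% for Mnda, 49.7% for Ifi205 and 0.0% for Aim2. Pyhin1 shared 36.8% of its 50-base fragments with BC094916, Ifi204 shared 22.3% with Mnda, and Pydc3 shared 16.5% with Pydc4. The values of Mnda and Ifi205 are thus the least certain, and that of Aim2 is the least affected. The model of Mndal contains that of Mnda and overlaps most of that of Ifi203 on the same strand, and its exons share 37 bases with those of Ifi203 and none with those of Mnda. The model of Aim2 is long, with 7 transcripts over 115162 bases, and which of them the reads came from is not known.

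Several genes of inflammasomes and pyroptosis rose while Aim2 itself did not pass. Of 20 genes of inflammasomes and pyroptosis 11 rose and none fell, against 7.77% and 4.26% of all genes tested. Their median log2 fold change was 1.14. Gsdmd, the pore-forming executor of pyroptosis, stood at 37.2 ± 5.06 CPM in E861A and 7.07 ± 0.44 CPM in wild type (log2 fold change 2.40, SE 0.16, edgeR adjusted p = 7.81e-05). Casp4, a caspase that senses bacterial lipopolysaccharide, stood at 9.08 ± 1.49 CPM in E861A and 0.43 ± 0.22 CPM in wild type (4.39, SE 0.40, edgeR adjusted p = 0.000421), and Casp1 at 9.99 ± 0.91 CPM in E861A and 2.15 ± 0.26 CPM in wild type (2.22, SE 0.22, edgeR adjusted p = 0.000670). Naip5, a receptor of flagellin, rose by 1.46 (SE 0.21). The calls of Casp1 and Naip5 were lost in male libraries alone. Pycard, named here for its role after its value was seen, stood at 26.2 ± 4.14 CPM in E861A and 13.9 ± 3.44 CPM in wild type (SD, n = 3 each) and rose by 0.92 on the log2 scale (SE 0.22, edgeR adjusted p = 0.0357). Its call was lost in male libraries alone and without E861A 6, E861A 16, wild type 15 or wild type 17. Il1b and Il18, cytokine genes whose products caspase-1 matures, were named for that role after their values were seen. Il1b had a log2 fold change of 0.22 (SE 0.46) and did not pass. Il18 rose by 1.37 (SE 0.37, edgeR adjusted p = 0.0488). Its call was lost in several fits, among them RLE size factors, sex as a covariate, and each library left out except wild type 2. The count of rises was 7 with sex as a covariate, 2 in male libraries alone, 6 without E861A 6, 6 without E861A 16, 7 without wild type 15 and 5 without wild type 17.

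Of 18 tested genes of cytosolic DNA sensing and clearance 7 rose and 1 fell, against 7.77% and 4.26% of all genes tested. Their median was 0.22. Zbp1, a sensor of Z-form nucleic acid, stood at 145.5 ± 42.4 CPM in E861A and 0.32 ± 0.13 CPM in wild type (log2 fold change 8.82, SE 0.38, edgeR adjusted p = 1.0e-05). Irf7 (6.68, SE 0.40), Ikbke (1.82, SE 0.16) and the dNTP hydrolase gene Samhd1 (1.78, SE 0.16) rose as well. Tmem173, the gene of the adaptor STING, stood at 27.0 ± 1.49 CPM in E861A and 10.9 ± 1.0 CPM in wild type (SD, n = 3 each; 1.31, SE 0.15, edgeR adjusted p = 0.00136) and was named after its value was seen; its call was lost in male libraries alone. The gene that fell was Prkdc, the catalytic subunit of the DNA-dependent protein kinase (-0.62, SE 0.14, edgeR adjusted p = 0.0290), a call lost with sex as a covariate, in male libraries alone and without E861A 6, E861A 16, wild type 15 or wild type 17. Trex1 is listed at 0 in all libraries, and Mb21d1 was not matched by symbol.

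Interferon-stimulated genes from other loci give a yardstick for the members. All 30 on the list rose, against 7.77% of all genes tested, with a median log2 fold change of 6.55. The smallest p were those of Mx2 (8.17, SE 0.26), Oasl1 (8.53, SE 0.29), Dhx58 (5.90, SE 0.20) and Xaf1 (6.89, SE 0.23). Among the 5 genes outside the members whose centred log2 CPM over the 6 libraries lay closest to the members' mean were Irgm1 (distance 0.197), Gm16340 (0.215), Klrk1 (0.218) and Ifih1 (0.331). For these 4, Pearson's r with that mean was 0.998 to 0.9996 over the 6 libraries, which share the split by genotype, and is given as a description. Gm16340 lies inside the locus and shares exonic fragments with Ifi203, so its likeness is not that of an unrelated gene.

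Macrophages, granulocytes and lymphocytes are known to express p200 genes, so their markers are given beside the members. For comparison, 7.77% of all genes tested were called higher in E861A and 4.26% lower. Of 14 tested macrophage and monocyte markers (of 16) 1 rose, Cd68 (0.78, SE 0.15), and 1 fell, Emr1 (-0.89, SE 0.21), with a median of -0.20. Their summed level ranged from 309.0 to 345.0 CPM in E861A and from 323.3 to 424.9 CPM in wild type, and Cd163 and Vsig4 had at most 0.24 CPM in any library. Of 10 granulocytic markers Prtn3 (1.32, SE 0.31) and Ctsg (1.70, SE 0.43) rose, with a median of 0.01 and a summed level from 408.0 to 707.5 CPM in E861A and from 268.3 to 490.9 CPM in wild type. Of 7 tested lymphoid markers (of 10) Lck rose (2.0, SE 0.17) and Rag1 fell (-2.54, SE 0.60), with a median of -0.48 and a summed level from 26.3 to 29.6 CPM in E861A and from 10.2 to 13.4 CPM in wild type. Lck made up much of that sum, with 23.7, 19.8 and 18.5 CPM in E861A 6, 16 and 19 and 5.24, 5.24 and 5.0 CPM in wild type 2, 15 and 17, and Cd3e had 1 read in all. The calls of Cd68, Emr1, Ctsg and Rag1 were lost with sex as a covariate, and those of all 4 and of Prtn3 were lost in male libraries alone and in several fits that left out 1 library, among them those without E861A 16 and without wild type 17. Of 10 tested fetal liver markers none rose, while Slc4a1 and Klf1 fell (-1.92, SE 0.30, and -1.03, SE 0.24), with a median of -0.10. Both calls were lost with sex as a covariate and in male libraries alone, and that of Klf1 also without any 1 library other than wild type 2. The part of any of these cell types in the members' rise was not tested.

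**Figure D5:**
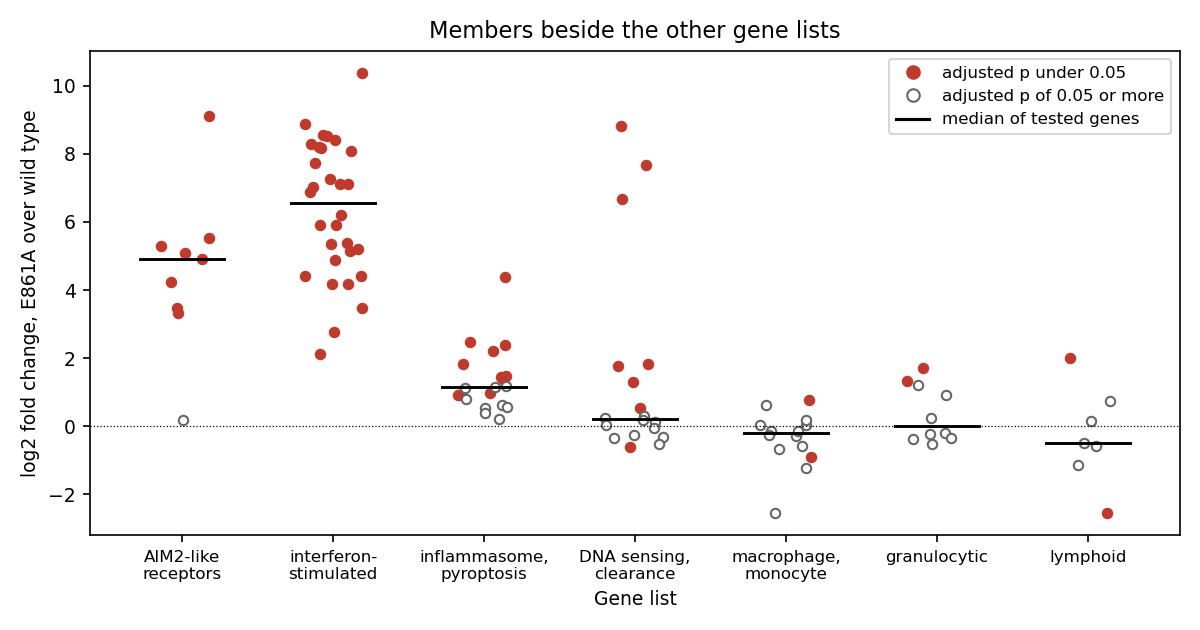
Log2 fold change of E861A over wild type for each tested gene of the members and of 6 other gene lists, with medians as lines; filled points passed at an adjusted p under 0.05. Of the 9 members 8 lie between 3.33 and 9.12 and Aim2 at 0.18, while the macrophage and monocyte markers have a median of -0.20.

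The authors' site table lists 6012 editing sites, of which 2 lay in or within 5 kb of a member. The members are 9 of the 37576 genes counted, so that number is not read here as few or many. Both sites were in the 3′ untranslated region of Ifi203, at positions 175850843 and 175850865 of chromosome 1 (NCBIM37). At the first site 1 of 470 reads was edited in E861A (0.213%, Wilson 95% interval 0.0376% to 1.2%) and 0 of 28 in wild type, where a limit of 3 reads for a count of 0 allows up to 10.7% (Wilson upper bound 12.1%). At the second site 1 of 407 reads was edited in E861A (0.246%, interval 0.0434% to 1.38%) and 0 of 26 in wild type, which by the same limit allows up to 11.5% (Wilson upper bound 12.9%). Neither differed by Fisher's exact test, two-sided (p = 1.0 for each). Coverage was lower in wild type, where the level of Ifi203 was lower too, and a difference of a few percent was not detectable at this depth. A single edited read cannot be told from a sequencing error, so it does not show editing in E861A. Several other members had few wild-type reads in which a site could be seen: 4 for Pydc4, 24 for Ifi205, 46 for Pydc3, 89 for Pyhin1 and 117 for Mnda. The remaining members had from 541 (Mndal) to 2073 (Aim2). The lack of a recorded site in a member with few reads therefore does not show a lack of editing.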

How the data were processed

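RNA-seq libraries of 6 fetal livers (3 E861A, 3 wild type) were analysed. The submitters' processing notes name HTSeq, limma, edgeR, BWA and Cufflinks without versions, SAMtools 0.1.19, TopHat2 2.0.8, Bowtie2 2.1.0.0 and Trimmomatic 0.30, and the builds NCBIM37 and mm9; they give no role or order. Strandedness and the treatment of reads with several alignments are not given in the sources used here.

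The authors deposited raw read counts per Ensembl gene. Per the file headers, the site table gives coverage and, as a fraction, the editing level. The authors' comparison holds log2 fold changes and p-values, per the file headers in columns named as limma names them, as wild type minus mutant. The deposited normalised tag counts were not used.

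Counts were tested in edgeR (4.0.16, under R 4.3.3): the filter filterByExpr kept 16511 of 37576 genes, libraries were scaled by TMM, and a robust quasi-likelihood F test compared E861A with wild type, with Benjamini-Hochberg adjustment over all tested genes and a threshold of 0.05. The test was checked on simulated counts. The SE was taken as the log2 fold change divided by the root of F. The alternatives were RLE size factors, DESeq2 1.42.0, no filter on low counts, 1 CPM in 3 libraries, sex as a covariate, male libraries alone (1 wild type, assumed to vary like the E861A group), and each library left out. Multiplying coverage by level gave edited reads. Where both genotypes had 10 or more reads, sites were tested with Fisher's exact test in SciPy 1.17.1, adjusted over 3883 sites. Intervals and floors cover counting error only. Exonic lengths came from GENCODE M1, which held 37205 of the counted genes, 99.3% with the same start. Members were matched to RefSeq promoters by symbol or synonym. The members were compared by fragments of the genome; proteins were not analysed here. The named genes were all members, the genes inside the locus, up to 4 called genes with the smallest p per list and direction, and the 5 nearest profiles, of which 1 is not reported here. Members and lists were chosen with earlier results of these data known.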

Additional observations from a re-analysis of the deposited data

How the results depend on the processing

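Each of the 9 members kept its direction and its side of the threshold under all 12 alternatives (108 values). The 8 that rose stayed between 3.14 (Mndal) and 9.52 (Pydc4) on the log2 scale, with the largest adjusted p, 0.0382, for Ifi205 in male libraries alone. Aim2 ranged from 0.0046 to 0.31, and never passed. With single libraries left out 8 members rose and none fell each time. No paired analysis was possible because no liver number occurs in both genotypes.

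Over all genes the counts depended on sex and on single libraries: a covariate for sex left 530 rises and 39 falls, and male libraries alone (1 of them wild type) 301 and 8. DESeq2 gave 1388 falls, and a minimum of 1 CPM in 3 libraries 1160. With single libraries left out, rises ranged from 515 to 1737 and falls from 95 to 1502. Genes called in either direction with sex as a covariate and in male libraries alone were 7 and 2 of the inflammasome list, 0 and 0 of the macrophage markers, 1 and 0 of the granulocytic, 1 and 1 of the lymphoid and 0 and 0 of the fetal liver markers, and 5 of the DNA sensing list in male libraries alone. DESeq2 called 4 macrophage, 5 granulocytic and 6 fetal liver markers. RLE size factors and the 1 CPM minimum each called 4 macrophage markers, and that minimum 1 lymphoid marker. Leaving out single libraries gave 5 to 11 inflammasome genes, 6 to 9 DNA sensing genes, 30 to 30 interferon-stimulated genes, 0 to 4 macrophage, 0 to 3 granulocytic, 1 to 2 lymphoid and 1 to 3 fetal liver markers. The causes were not tested. A minimum of 20 reads left the editing result as it was, with 2 sites tested.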
